A study of Mus musculus with 2 samples.

Results

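The genes S100a5, Omp, Doc2g, Tbx21 and Calb2 are known markers of the olfactory bulb and of the sensory neurons that feed it. Their levels were read in brain RNA of mouse dams on the day of delivery (P0). They are 5 of 27677 gene names on the array, and 8 probes carried them, namely 1 each for S100a5, Omp and Tbx21, 2 for Doc2g and 3 for Calb2. The 5 genes were chosen by name with their ratios on these same arrays already known, so the ratios below are a description of the genes and carry no test.

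The study compared brain RNA of C57BL/6J female mice 8 weeks old on postpartum day 0 to ask which genes depend on TDAG51, the product of Phlda1, in mothers. RNA of TDAG51-/- dams, which lack the gene, was labelled with Cy3 on both arrays. It was hybridized against RNA of TDAG51+/+ dams in Cy5 on the first array and against RNA labelled TDAG51 KO Tg in Cy5 on the second. The KO Tg animals carried the same deletion together with murine TDAG51 under the BAI1-AP4 promoter, which is brain specific and drives the transgene mainly in the cerebral cortex and the hippocampus. All 4 channels therefore shared the named strain, sex, age and postpartum day, and all but the TDAG51+/+ channel shared the deletion. The study backcrossed its transgenic lines to C57BL/6J and crossed them with TDAG51-/- mice. Whether the rest of the genome was alike in all channels was not tested. The sources used here do not give the number of dams behind each RNA. Each comparison was 1 array without a dye swap, so no difference could be tested across animals, and a difference between genotypes cannot be told apart from one between the dyes. Both comparisons had TDAG51-/- RNA in Cy3 and are not independent of each other.

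In the olfactory system, sensory neurons of the nasal epithelium send their axons into the olfactory bulb, where they end in glomeruli on the dendrites of mitral and tufted cells. Mitral and tufted cells carry the signal to the cortex, and local interneurons, the periglomerular and granule cells, shape it. These interneurons are replaced through life by neuroblasts that migrate into the bulb from the wall of the lateral ventricle. Odours of pups reach the maternal brain along this route. Among the 5 genes, S100a5 and Omp belong to the sensory neurons, Doc2g and Tbx21 to mitral and tufted cells, and Calb2 to interneurons of the glomerular layer.

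The probes were oligonucleotides of 60 bases. Those that gave the S100a5 ratio, the Omp ratio, the disagreement between Doc2g probes and the repeated Calb2 ratio are shown 5′ to 3′ as the array files give them.
S100a5, probe A_51_P108812: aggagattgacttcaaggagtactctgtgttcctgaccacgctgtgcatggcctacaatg
Omp, probe A_51_P426232: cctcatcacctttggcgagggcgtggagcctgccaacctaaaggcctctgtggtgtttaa
Doc2g, probe A_51_P359137: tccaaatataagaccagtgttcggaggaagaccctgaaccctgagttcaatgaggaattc
Doc2g, probe A_52_P475439: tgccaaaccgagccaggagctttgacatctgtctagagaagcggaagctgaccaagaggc
Calb2, probe A_51_P311436: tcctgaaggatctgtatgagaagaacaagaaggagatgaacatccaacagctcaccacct
Calb2, probe A_52_P556433: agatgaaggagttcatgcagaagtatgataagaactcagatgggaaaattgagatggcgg

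On the mouse build mm7, the S100a5 probe (NM_011312) lay at chr3:90741771-90741830 on the plus strand and the Omp probe (NM_011010) at chr7:94176839-94176898 on the minus strand. The Doc2g probes (NM_021791) lay on the plus strand, A_51_P359137 at chr19:3901192-3901363 and A_52_P475439 at chr19:3899405-3899578. The Tbx21 probe A_51_P501364 (NM_019507) lay at chr11:97207142-97207201 on the minus strand. The 3 Calb2 probes (NM_007586) lay on the minus strand of chromosome 8, A_51_P311436 at chr8:108743305-108743364, A_52_P571780 at chr8:108743456-108748935 and A_52_P556433 at chr8:108751135-108751194. Both Doc2g probes and Calb2 probe A_52_P571780 covered more of the genome than their own length, up to 5480 bases for the latter, as a probe across a splice junction does. The exon or untranslated region behind each probe was not analysed here.

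The array files read 41174 probes. Median mean intensities were 334.7 and 334.6 in Cy3 and 360.0 and 382.9 in Cy5, over median backgrounds between 39 and 44. The targeted gene Phlda1 had 1 probe, which read 350.5 in TDAG51-/- and 7283 in TDAG51+/+ on the first array, 17.3-fold lower in TDAG51-/-. The same probe on the other array read 44.1 in TDAG51-/- and 50.5 in the RNA labelled TDAG51 KO Tg, both not well above background. The first TDAG51-/- reading was well above its background of 43, so the channels labelled TDAG51-/- differed in this gene. The study reports TDAG51 expression in the brains of its transgenic lines by RT-PCR and immunofluorescence. This probe showed no transgene RNA in the sample labelled KO Tg. Whether the transgene contains the probe's sequence is not given in the sources used here. Directions drawn from that sample therefore refer to the RNA labelled KO Tg.

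All 8 member probes were well above background in all 4 channels by the scanner's mark, none was saturated, and all were kept by the filter on dim probes. On the first array, S100a5 and Doc2g, each read by its brightest probe, were at least 2-fold lower in TDAG51-/-, against 4.42% of all tested probes. On the second array they were again the members at least 2-fold lower than in the RNA labelled KO Tg, against 3.86% of all tested probes. That made 2 of 5 members lower against both control samples, where 1.37% of probes tested on both arrays were. Omp and Tbx21 stayed within 2-fold of both controls. Calb2 read higher in TDAG51-/- with all 3 probes. The choice of the 5 genes used these ratios, so nothing is read from the counts. In RNA of whole tissue, fewer cells of a type and less RNA per cell cannot be told apart.

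**Figure D1:**
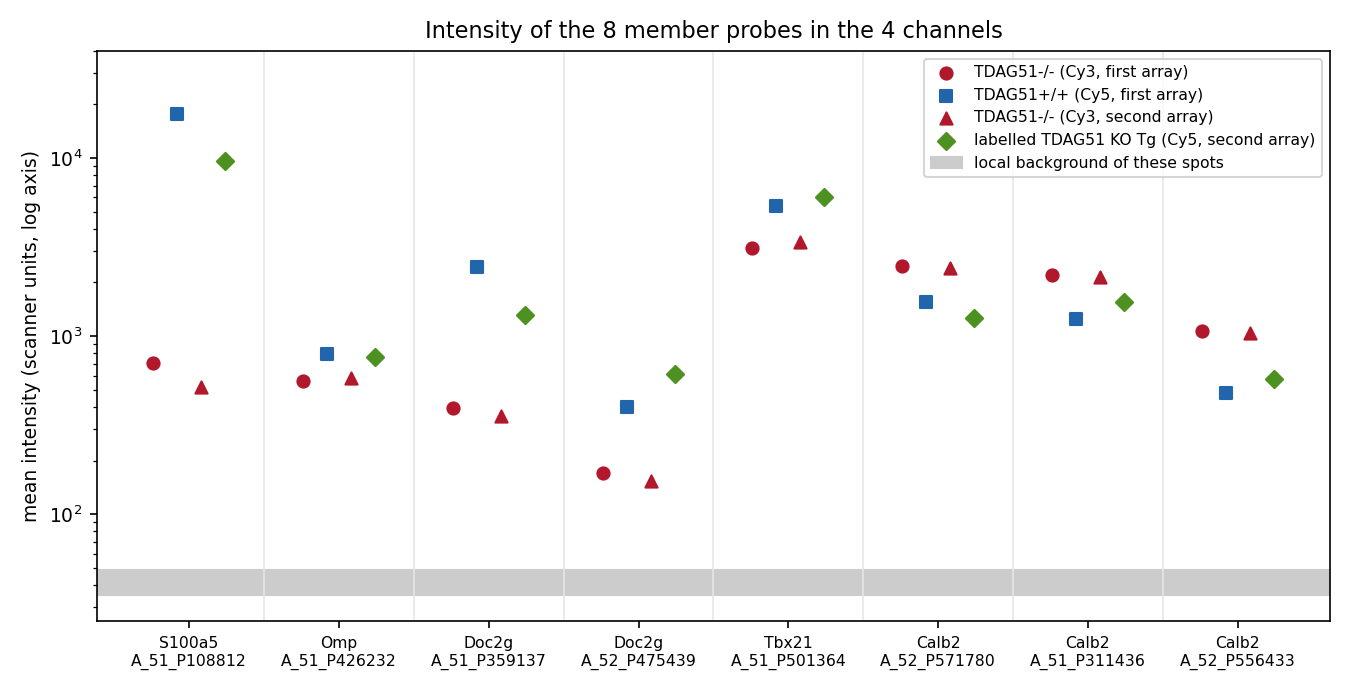
Mean intensity of each member probe (scanner units, log axis) in the 4 channels, with the range of local background around these spots as a grey band. The red TDAG51-/- symbols lie below both controls for S100a5, Omp, Doc2g and Tbx21 and above both for the 3 Calb2 probes.

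S100a5 encodes a calcium-binding protein of the S100 family with EF-hand motifs, known from olfactory sensory neurons and the bulb. Its probe read 701.8 in TDAG51-/- and 17562 in TDAG51+/+ on the first array. On the second array it read 515.4 in TDAG51-/- and 9562 in the RNA labelled KO Tg. Both TDAG51-/- readings were far below both controls and still more than 10 times the local background, which was 45 in Cy3 on each array. After normalization S100a5 was 20.3-fold lower than in TDAG51+/+, a log2 ratio of -4.34 with a scanner error of 0.47. It was 15.1-fold lower than in the RNA labelled KO Tg, a log2 ratio of -3.92 with an error of 0.44. The scanner error here and below is the software's estimate for a single spot, and covers no animal. It belongs to the software's own log ratio and not to the ratio normalized here. For S100a5 the software's log2 ratios were -4.50 and -4.10. Of the probes tested, 3 had a lower ratio than S100a5 against TDAG51+/+ and 13 against the labelled KO Tg. S100a5 had 1 spot per array, so no spot repeated its value.

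Omp encodes olfactory marker protein, the classical marker of mature olfactory sensory neurons. It read 561.7 in TDAG51-/- and 798.1 in TDAG51+/+, then 579.2 in TDAG51-/- and 761.8 in the RNA labelled KO Tg. The log2 ratios were -0.34 against TDAG51+/+ and -0.17 against the labelled KO Tg, with scanner errors of 0.21 each, so the second lay within its own error of 0. Omp was 1.27-fold and 1.12-fold lower, in the same direction as S100a5 and far smaller.

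Doc2g encodes a C2-domain protein of the double C2 family and marks mitral and tufted cells. Its brighter probe, A_51_P359137, read 395.4 in TDAG51-/- and 2434 in TDAG51+/+. On the second array that probe read 357.1 in TDAG51-/- and 1312 in the RNA labelled KO Tg. The log2 ratios were -2.41 with an error of 0.32 and -1.61 with an error of 0.26, or 5.32-fold and 3.06-fold lower in TDAG51-/-. The other probe, A_52_P475439, was dimmer and read 169.5 and 399.5 on the first array, then 154.4 and 610.4 on the other. Its log2 ratios were -1.09 with an error of 0.24 and -1.72 with an error of 0.29, or 2.12-fold and 3.29-fold lower. Both probes thus read Doc2g lower in TDAG51-/- on both arrays, and they differed in size against TDAG51+/+ by more than the errors of both.

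Tbx21 encodes the T-box transcription factor T-bet, present in mitral and tufted cells and otherwise known from T lymphocytes. It read 3133 in TDAG51-/- and 5376 in TDAG51+/+, then 3395 in TDAG51-/- and 6073 in the RNA labelled KO Tg. The log2 ratios were -0.48 and -0.50, or 1.39-fold and 1.42-fold lower, each with an error of 0.21. Tbx21 and Doc2g mark the same cells of the bulb, and their ratios against TDAG51+/+ lay apart by more than their errors.

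Calb2 encodes calretinin, a calcium-binding protein of periglomerular interneurons in the bulb and also of granule cells of the cerebellum, the thalamus and cortical interneurons. Probe A_51_P311436 was printed in 10 spots, of which 9 were kept on each array after 1 outlying spot was left out. Over the 9 spots of the first array, TDAG51-/- read from 1860 to 2516 with a median of 2149, and TDAG51+/+ from 1051 to 1389 with a median of 1218. On the second array TDAG51-/- read from 1952 to 2345 with a median of 2110, and the RNA labelled KO Tg from 1434 to 1640 with a median of 1597. The 2 channels did not overlap on either array, and TDAG51-/- was the brighter channel in 9 of 9 spots on both. These spots repeat the measurement and not the animal. The log2 ratio was 1.03 ± 0.05 (SD, n = 9 spots) against TDAG51+/+, or 2.04-fold higher in TDAG51-/-. Against the RNA labelled KO Tg it was 0.71 ± 0.06 (SD, n = 9 spots), or 1.64-fold higher. Over 220 and 219 probes with at least 5 kept spots, the median SD of the log2 ratio was 0.057 and 0.060. Spots of a probe thus lay close together in general, and how many of those probes had channels without overlap was not counted.

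The other Calb2 probes read in the same direction. A_52_P571780, the brightest, read 2472 and 1553 on the first array, then 2419 and 1265 on the other, a log2 ratio of 0.90 and of 1.18. A_52_P556433 read 1067 and 480.5, then 1034 and 571.0, a log2 ratio of 1.28 and of 1.06. Whether Calb2 was past 2-fold depended on the probe and on the scaling. As normalized here, A_52_P556433 was past it against both controls, A_51_P311436 against TDAG51+/+ alone and A_52_P571780 against the labelled KO Tg alone. Without normalization the only value past 2-fold was 1.11, of A_52_P556433 against TDAG51+/+, and after median centring A_51_P311436 was at 0.96 against TDAG51+/+. Of all tested probes, 4.9% were at least 2-fold higher in TDAG51-/- than in TDAG51+/+, 4.72% than in the RNA labelled KO Tg, and 2.69% than in both.

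**Figure D2:**
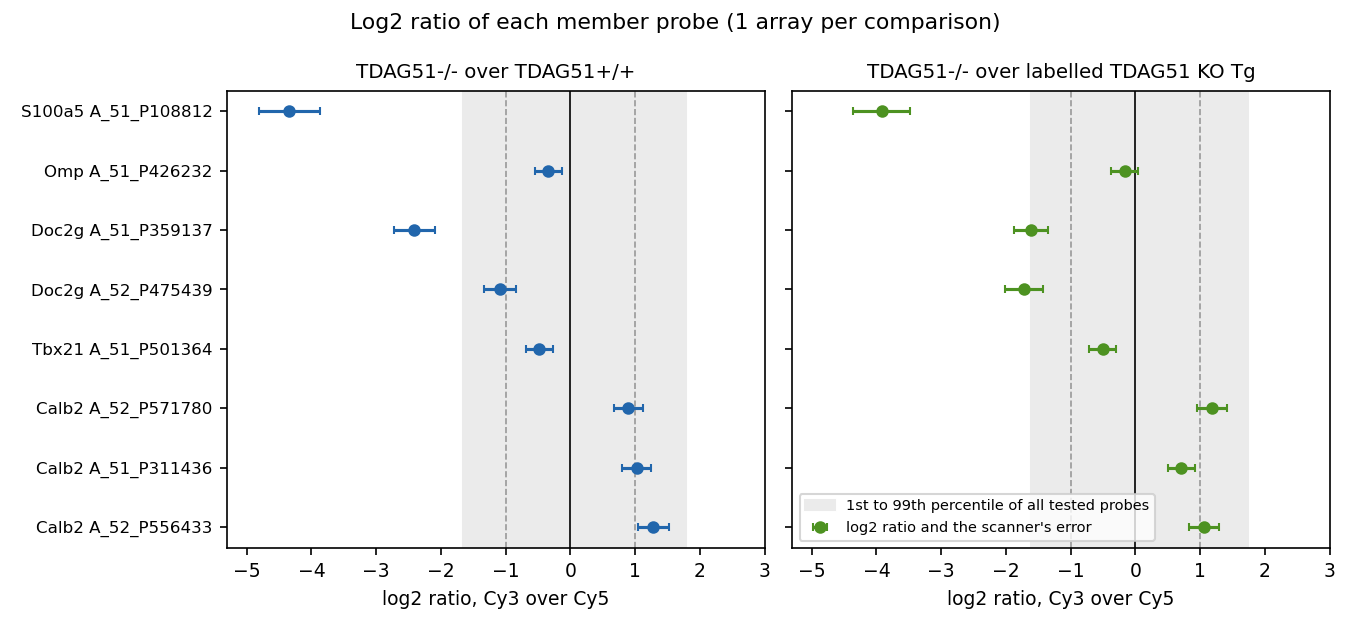
Log2 ratio of TDAG51-/- over each control for every member probe, with dashed lines at 2-fold and a grey band from the 1st to the 99th percentile of all tested probes. Bars are the scanner's error, which belongs to the software's own log ratio of the probe. S100a5 lies outside the band on both arrays, at -4.34 and -3.92. So does the brighter Doc2g probe, at -2.41 and, just past the edge, at -1.61. The dimmer Doc2g probe lies outside it against the labelled KO Tg alone, at -1.72. The 3 Calb2 probes lie right of 0 inside it, between 0.71 and 1.28.

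The setting of background correction and normalization changed no member's direction. Over 6 settings, S100a5 lay between -4.62 and -4.34 against TDAG51+/+ and between -4.18 and -3.92 against the labelled KO Tg. The brighter Doc2g probe lay between -2.62 and -2.41 and between -1.84 and -1.61, and the dimmer one between -1.42 and -1.03 and between -2.21 and -1.72. Omp lay between -0.51 and -0.34 and between -0.39 and -0.17. Tbx21 lay between -0.78 and -0.48 and between -0.84 and -0.50. For the Calb2 probes the lowest value of any setting was 0.46 and the highest 1.39.

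Both Cy5 channels held a control, so the RNA labelled KO Tg could be set against TDAG51+/+ in the same dye across the 2 arrays. No member's brightest probe differed by 2-fold between them, where 7.9% of all probes did in either direction. S100a5 was 1.84-fold higher in TDAG51+/+ (log2 of KO Tg over TDAG51+/+ -0.88). The Doc2g probes disagreed, since A_51_P359137 was 1.92-fold higher in TDAG51+/+ (-0.94) and A_52_P475439 was 1.42-fold higher in the RNA labelled KO Tg (0.50). The difference was -0.14 for Omp and 0.13 for Tbx21. It was -0.32, 0.28 and 0.17 for Calb2 probes A_52_P571780, A_51_P311436 and A_52_P556433, with no common sign.

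The matching comparison set the 2 TDAG51-/- channels in Cy3 against each other. Whether they held the same RNA is not given in the sources used here. Their difference therefore need not be the spread between arrays alone. Between these channels 0.362% of all probes differed by 2-fold, with a robust SD of 0.15 on the log2 scale, against 0.42 between the Cy5 channels. S100a5 differed by -0.46 between the TDAG51-/- channels, more than any other member probe. The remaining member probes lay between -0.14 and 0.11. For the brighter Doc2g probe the difference between the controls was larger than that between the TDAG51-/- channels. For S100a5 it depended on the calculation, since the difference of the 2 arrays' ratios put the controls -0.42 apart and not -0.88. For both probes the controls differed from each other less than either did from TDAG51-/-.

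**Figure D3:**
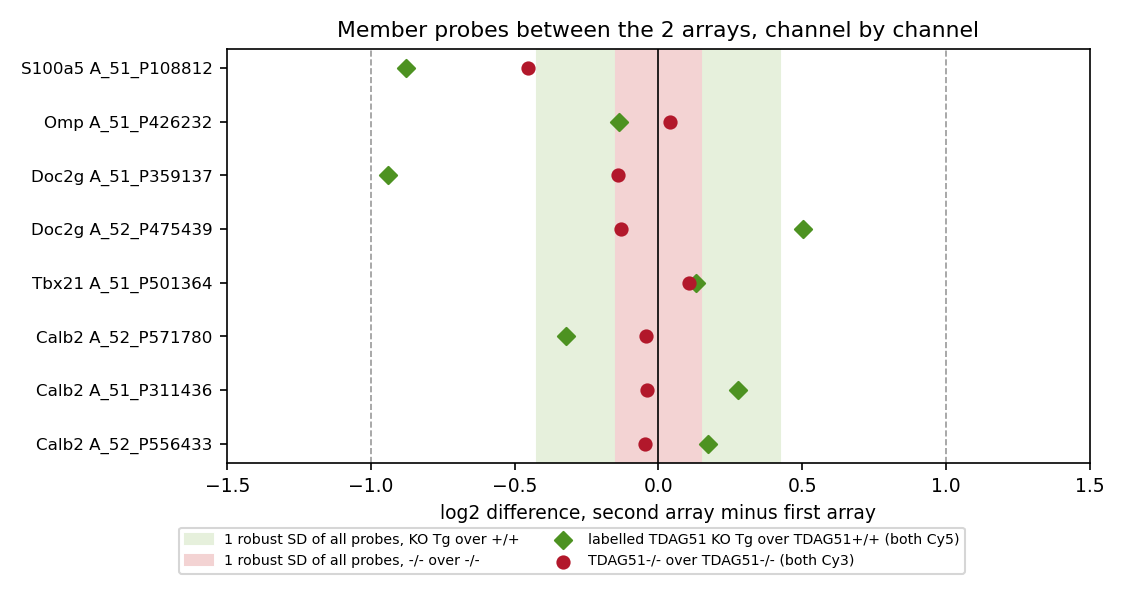
Log2 difference of each member probe between the second and the first array, for the controls in Cy5 (diamonds) and for TDAG51-/- in Cy3 (circles), with bands of 1 robust SD of all probes to each side of 0 and dashed lines at 2-fold. The diamonds of S100a5 (-0.88) and of the Doc2g probes (-0.94 and 0.50) lie outside the wider band, and the circle of S100a5 (-0.46) lies left of the other circles.

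Other genes of the same cells were read through lists of known markers, with each gene at its brightest probe. Of 88 genes listed, 82 were on the array. The median log2 ratio of all probes measured on both arrays was 0.02 on each, so a list's median can be read against 0. Of all tested probes, 4.42% were at least 2-fold lower and 4.9% higher against TDAG51+/+. Against the labelled KO Tg the shares were 3.86% and 4.72%, and against both controls 1.37% and 2.69%. The lists were chosen with earlier results of these data known, so their counts are a description.

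Of 15 further genes of olfactory sensory neurons, 11 were on the array and 8 were measured on both arrays. Their median was -0.48 against TDAG51+/+ and -0.32 against the RNA labelled KO Tg. At 2-fold, 2 were lower and 1 was higher against TDAG51+/+, and 0 were lower and 1 was higher against the labelled KO Tg. Ano2, the calcium-activated chloride channel of the sensory cilia, read 108.1 and 321.1 on the first array, then 110.1 and 213.9 on the other. It was 2.60-fold and 1.69-fold lower in TDAG51-/-. Stoml3, a stomatin-like membrane protein of the cilia, was 2.51-fold lower than in TDAG51+/+ and 1.08-fold lower than in the labelled KO Tg.

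Gng13, a G protein gamma subunit, stood apart from the other genes of the list. It read 25031 in TDAG51-/- and 7606 in TDAG51+/+, then 25864 and 6124 in the RNA labelled KO Tg, or 4.71-fold and 6.05-fold higher in TDAG51-/-. No other measured gene of the list read above 825 in any channel. Which cells of the brain gave the Gng13 signal was not tested. Gng8, another gamma subunit, had log2 ratios of 0.06 and -0.25, and the first changed sign with the scaling. The receptor transporters Rtp1 and Rtp2 and Umodl1, which belong to the same neurons, were near background in all or nearly all channels and gave no ratio.

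The olfactory receptor genes are expressed in the sensory neurons themselves, and 952 probes of the array carried an Olfr name. Of these, 47.6% and 44.4% were well above background in the TDAG51-/- channels, 46.7% in TDAG51+/+ and 36.2% in the RNA labelled KO Tg, against 75.5% to 82.3% of all probes. The 419 Olfr probes measured on both arrays had a median log2 ratio of -0.17 and of -0.13. At least 2-fold lower than in TDAG51+/+ were 30 of them and higher 14, and against the labelled KO Tg 10 were lower and 14 higher. The processing moved these counts, from 28 to 85 lower and 11 to 52 higher against TDAG51+/+, and from 10 to 55 and 9 to 49 against the labelled KO Tg. Over all 33254 probes measured on both arrays, 1416 were lower and 1693 higher than in TDAG51+/+, and 1249 were lower and 1593 higher than in the labelled KO Tg. Near-identical receptor genes can share a probe, so single receptors are not named.

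The nasal epithelium also holds cells that are not neurons, and their genes gave few ratios. Of 5 such genes, 3 were measured on both arrays, with a median log2 ratio of -0.15 and of -0.30. Cyp2a5, a cytochrome P450 of the nasal mucosa, read 80.3 in TDAG51-/- and 295.3 in TDAG51+/+, then 82.6 and 104.0 beside the RNA labelled KO Tg. Cbr2, a carbonyl reductase, and Muc5b, a mucin of glands, had log2 ratios between -0.69 and 0.20, and Cbr2 read from 281.7 to 665.6 over the 4 channels.

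All 6 listed genes of mitral and tufted cells were measured, with medians of -0.60 and -1.05. At least 2-fold lower in TDAG51-/- were 3 against each control and 2 against both. Cdhr1, a protocadherin of mitral and tufted cells listed as Pcdh21, read 841.0 in TDAG51-/- and 10535 in TDAG51+/+, then 1045 and 7005 in the RNA labelled KO Tg. Its log2 ratios were -3.37 and -2.45, on the side of Doc2g. Shisa3, listed as D830007B15Rik, was 4.32-fold and 1.86-fold lower. The gene that was past 2-fold against both beside Cdhr1 was Tbr1, a T-box factor also of the deep cortex, 2.37-fold and 2.79-fold lower.

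Eomes, the T-box factor Tbr2 of the same projection neurons and of unipolar brush cells of the cerebellum, was the opposite. It read 2157 and 1530, then 2337 and 1299, or 1.64-fold and 2.12-fold higher in TDAG51-/-. Reln, the secreted protein reelin of mitral cells and of cerebellar granule cells, had log2 ratios of 0.37 and 0.94, and the first changed sign without normalization.

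Of 13 measured genes of bulb interneurons, 6 were at least 2-fold lower than in TDAG51+/+ and 2 higher, and 4 were lower and 3 higher than in the RNA labelled KO Tg. Over 6 processing settings the lower genes numbered from 6 to 8 and from 4 to 8. The medians of the list were -0.69 and -0.65. Synpr, which is among the 6 lower than in TDAG51+/+, was at the ceiling of the scanner in both controls. Without it the medians were -0.66 and -0.61. Sp8, a zinc finger factor of periglomerular and granule cells, read 2856 and 41833, then 2878 and 36405, or 10.4-fold and 8.99-fold lower in TDAG51-/-. Dlx2, a homeobox factor of the interneurons and their precursors, was 3.84-fold and 3.57-fold lower. Th, tyrosine hydroxylase of dopaminergic periglomerular cells and of the midbrain, was 2.01-fold and 4.73-fold higher. Pax6, a factor of the same periglomerular cells and of cerebellar granule cells, was 2.42-fold and 3.26-fold higher. Calb2 therefore lay on the side of Th and Pax6 and opposite to Sp8 and Dlx2.

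Of 6 genes of migrating neuroblasts, 3 and 2 were at least 2-fold lower and 0 higher, with medians of -0.92 and -0.52. Igfbpl1 was 2.64-fold and 3.29-fold lower and Sox11, a factor of immature neurons, 1.77-fold and 2.32-fold lower. Cd24a, a surface protein of neuroblasts and of other cells, was 1.78-fold and 1.82-fold higher. Prokr2, the prokineticin receptor that guides neuroblasts into the bulb, had log2 ratios of 0.08 and 0.10, the second of which changed sign with the scaling. All 4 genes of olfactory ensheathing glia, the cells around the sensory axons, had ratios below 0 on both arrays, with medians of -0.53 and -0.34. Frzb was 2.33-fold lower than in TDAG51+/+ and 1.21-fold lower than in the labelled KO Tg, and Ngfr, the low-affinity neurotrophin receptor, 1.56-fold and 1.33-fold lower. Fabp7, a fatty acid-binding protein of glia, was 1.22-fold and 1.08-fold lower, and Matn2, a matrix protein, had log2 ratios of -0.42 and -0.59.

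**Figure D4:**
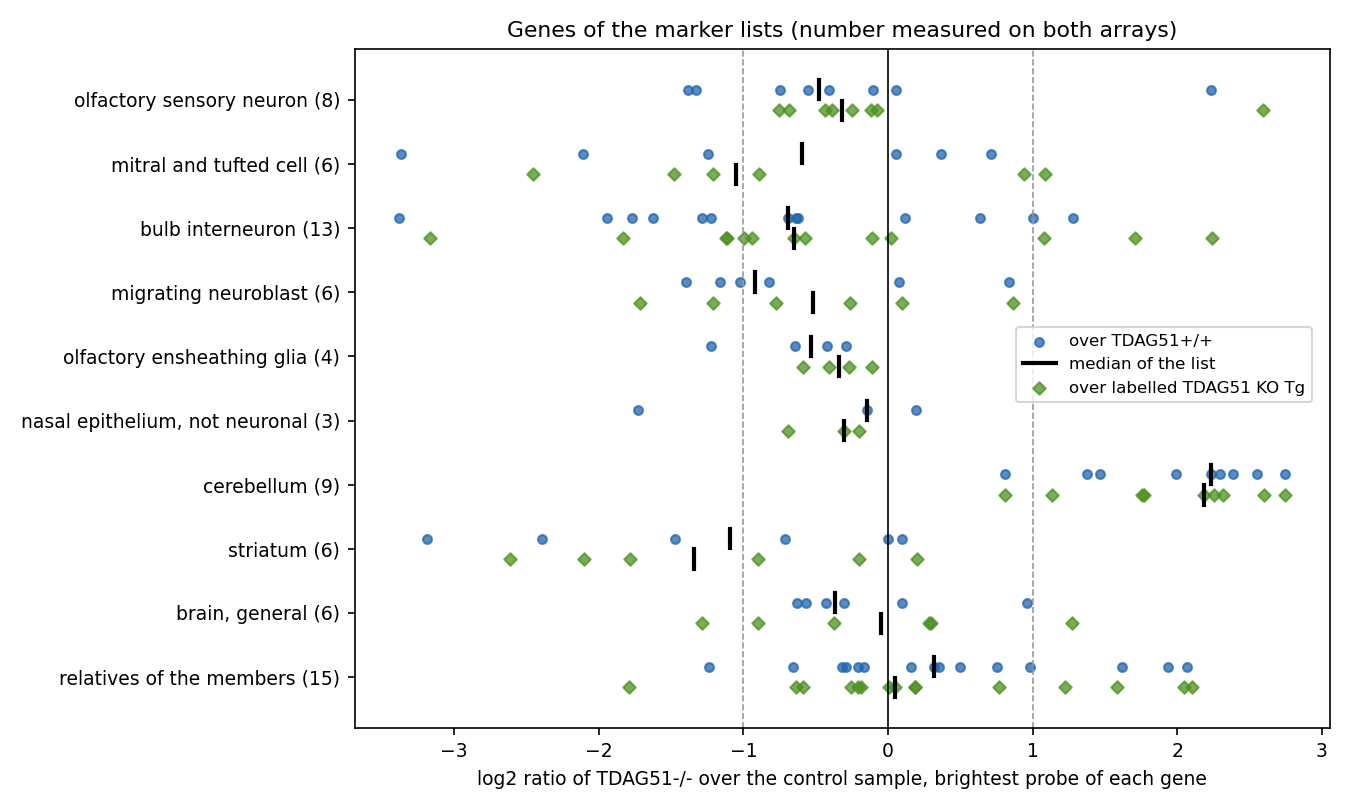
Log2 ratio of TDAG51-/- over TDAG51+/+ (circles) and over the RNA labelled TDAG51 KO Tg (diamonds) for each gene of the marker lists, at its brightest probe, with black bars at the medians and dashed lines at 2-fold. The bulb lists spread to both sides of 0, the 9 cerebellar genes, 3 of them at the ceiling of the scanner in TDAG51-/-, lie right of 0 and most striatal genes lie left of it.

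Markers of other brain regions differed between the same samples. Of 9 genes of the cerebellum, 3 (Cbln1, Pcp2 and Zic1) were at the ceiling of the scanner in TDAG51-/- and are given without a fold. The other 6 were all at least 2-fold higher in TDAG51-/- against each control, with medians of 2.14 and 2.01. Pcp2, of Purkinje cells, read 15146 in TDAG51+/+ and 15333 in the RNA labelled KO Tg, below the ceiling of 65284 that it reached in TDAG51-/-. Cbln3, of granule cells, read 3403 and 656.1, then 2984 and 564.3, or 5.88-fold and 6.07-fold higher. En2, a homeobox factor, was 2.76-fold and 2.19-fold higher. Zic1 read 62724 and 63108 in the controls, close to the ceiling itself, so its ratio cannot be read. The 6 genes below the ceiling held 0.0315% and 0.0295% of the summed intensity of all measured probes in the TDAG51-/- channels, 0.0076% in TDAG51+/+ and 0.00646% in the RNA labelled KO Tg, and none of the defining genes was at 0.

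Of 6 measured striatal genes, 3 were at least 2-fold lower in TDAG51-/- against both controls and 0 were higher, with medians of -1.10 and -1.34. Rarb, a retinoic acid receptor, was 9.13-fold and 4.29-fold lower. The 6 genes held 0.0236% and 0.0202% of the summed intensity of all measured probes in the TDAG51-/- channels, 0.0371% in TDAG51+/+ and 0.0376% in the RNA labelled KO Tg, and most of that signal was Ppp1r1b. Ppp1r1b and Drd2, which also mark these neurons, had log2 ratios between -0.20 and 0.20, with signs that changed with the scaling for Drd2 on both arrays and for Ppp1r1b against TDAG51+/+. Genes of neurons and glia throughout the brain had medians of -0.37 and -0.05. Among these, the synaptic protein Syt1 had log2 ratios of -0.56 and -1.29, the microtubule protein Map2 was 1.55-fold and 1.86-fold lower and the astrocyte water channel Aqp4 1.95-fold and 2.42-fold higher. Snap25 had log2 ratios of 0.10 and 0.28, both of which changed sign with the scaling. The cerebellar list had medians above 0 and the striatal list medians below 0. Of the members, Calb2 lay above 0 and S100a5, Omp, Doc2g and Tbx21 below it on both arrays. The part of the regional makeup of the samples in the member ratios was not tested.

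The members' closest relatives had ratios on both sides of 0. Among 15 genes, 10 of the S100 family beside S100b, 2 of the Doc2 family and the calcium-binding proteins calbindin (Calb1) and parvalbumin (Pvalb), 1 was at least 2-fold lower than each control, and 3 and 4 were higher. The lower gene was S100a3, which read 183.0 and 476.5, then 215.5 and 917.1, or 2.36-fold and 3.47-fold lower. S100a8, a gene of neutrophils, was 4.19-fold and 4.30-fold higher, and Pvalb, of Purkinje cells and fast-spiking interneurons, 3.82-fold and 4.14-fold higher. S100a6 had log2 ratios of -0.66 and -0.59. Doc2a and Doc2b had log2 ratios of 0.16 and 0.35 against TDAG51+/+, where Doc2g had -2.41, and of 0.01 and -0.63 against the labelled KO Tg, where Doc2g had -1.61. The sign for Doc2a changed with the scaling on both arrays.

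Along the chromosome, the 2 genes on each side of a member were mostly within 2-fold. Order was taken from RefSeq on GRCm38.p6 among genes on the array. Of 20 such neighbours, 18 were measured on both arrays. At least 2-fold lower in TDAG51-/- against both controls were 2 of them, and 0 were higher. Of all probes tested on both arrays, 1.37% were lower and 2.69% higher. The lower neighbours were S100a3, the second gene from S100a5, and Vac14, the second gene from Calb2. S100a4 and S100a6, which flank S100a5, had log2 ratios of 0.32 and -0.66 against TDAG51+/+, the first of which changed sign with the scaling, and Nudt8 and Ndufv1, which flank Doc2g, had -0.03 and 0.04.

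The genes whose levels were most like each member over the 4 channels were found by the Euclidean distance of log2 levels centred on the gene's mean, among 21769 genes. Those nearest to S100a5 were Lhx8 (distance 0.85), a LIM homeobox factor of forebrain cholinergic neurons, Sp8 (1.02) and Indo (1.14), which is indoleamine 2,3-dioxygenase. None matched the size of its ratio: Lhx8 read 355.8 and 5509, then 374.1 and 5062, with log2 ratios of -3.70 and -3.46. Nearest to Doc2g were Insrr (0.13), the insulin receptor-related receptor, LOC243881 (0.16) and Tcrb-V13 (0.19). Insrr was 5.61-fold and 3.27-fold lower. Omp, Tbx21 and Calb2 had much closer genes, led by Tia1 (0.015), Defb19 (0.010) and Phex (0.037), as genes with small ratios do. With 4 channels, such distances describe these samples only.

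S100a5, Doc2g and Tbx21 had a promoter sequence in the RefSeq table of GRCm38.p6, from 250 bases before the start of the gene to 50 after it. The 250 bases before the start are shown for the members lower against both controls, with the match of a searched motif in capitals. The first lies at chr3:90608272-90608521 and the second at chr19:4003135-4003384, both on the plus strand.
S100a5, GRCm38.p6: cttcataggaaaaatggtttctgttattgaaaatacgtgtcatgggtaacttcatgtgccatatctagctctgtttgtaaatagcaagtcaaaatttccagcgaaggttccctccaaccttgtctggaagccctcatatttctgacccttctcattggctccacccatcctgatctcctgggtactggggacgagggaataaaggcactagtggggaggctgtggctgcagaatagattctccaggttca
Doc2g, GRCm38.p6: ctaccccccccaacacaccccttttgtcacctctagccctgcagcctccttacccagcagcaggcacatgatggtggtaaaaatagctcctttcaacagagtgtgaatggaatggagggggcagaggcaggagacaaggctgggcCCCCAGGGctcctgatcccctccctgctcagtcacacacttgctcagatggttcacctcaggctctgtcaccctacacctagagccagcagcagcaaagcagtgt

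The letters CCCNNGGG, the inner part of the motif of EBF factors that act in olfactory neurons, matched 1 time in the Doc2g promoter and 0 times in the S100a5 and Tbx21 promoters, on either strand. They were in 13.7% of 32851 promoters of the same length. The homeodomain core TAATTA, in 5.29% of promoters, and TGACG, a part of the cyclic AMP response element, in 20.8%, were in none of the 3 promoters. A match shows that the letters are there and does not show a bound site.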

How the data were processed

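Brain RNA of P0 dams was measured on 2 Agilent mouse genome arrays of a single slide, each with 2 dyes and with TDAG51-/- in Cy3. The authors deposited spot files made by Agilent Feature Extraction 9.5.3.1, with a mean and a background intensity per spot. These deposited files also give the log10 ratio (Cy5 to Cy3) that the software computed from corrected and dye-normalized signals. A further deposited table gives per probe the log2 ratio of TDAG51-/- to its control, whose normalization is not given in the sources used here. The p-values of the scanner's error model were not used.

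Control and outlier spots were left out. Intensities were corrected by normexp (offset 50) and normalized by loess within arrays, and channel levels by Aquantile between arrays, with R 4.3.3 and its packages limma (3.58.1) and data.table (1.17.8), after the same steps had been tested on simulated data. Spots of a probe were averaged. A probe was tested if well above background in at least 1 channel of the array (of each array where both were used), and called at 2-fold, the threshold of the study's methods. No fold is given where a channel was saturated or both were near background. Tables and plots used Python 3.11.15, numpy 2.4.6, pandas 2.3.3 and matplotlib 3.10.9. The members, the marker lists, the motifs and the rules below were chosen with earlier results of these data known. Every member probe was reported. From each marker list up to 4 genes were named, the 2 with the lowest and the 2 with the highest mean log2 ratio, and for each member the 3 genes nearest to it. 1 gene that this rule gave is not reported here. Neighbours along the chromosome, and other genes named in the text, were chosen after their values were seen. Gene names are those of the array files, and older names were updated through RefSeq synonyms. The number of arrays limits the precision.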

Additional observations from a re-analysis of the deposited data

How the results depend on the processing

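Under every alternative tried, the members at least 2-fold lower in TDAG51-/- than in TDAG51+/+, than in the RNA labelled KO Tg and than in both remained S100a5 and Doc2g, and 0 members were 2-fold apart between the controls. The alternatives were normexp with offset 0, the scanner's log ratio, the deposited log2 ratio, median centring, no normalization, a filter on both channels, no filter, and the median or any 1 of a gene's probes. For the controls they were offset 0, Cy5 centred on the median of each array, quantile normalization and the difference of the ratios, which gave -0.42 for S100a5 (-0.88 as reported), -0.80 for Doc2g and 0.03 for Tbx21. Counts over all probes moved more. The 457 probes lower against both were 821 with offset 0, 1035 with the scanner's ratio, 757 after median centring, 1233 without normalization and 1101 in the deposited ratio. The 896 probes higher against both, whose alternatives were chosen after seeing the data, were 1552, 2038, 582 without normalization and 1938 in the deposited ratio. Without normalization the median of all tested probes was -0.19 and -0.25. The cause was not tested. No paired analysis was possible because each comparison had 1 array, and for the same reason no array could be left out. Dim probes were limited by signal over background, which the members exceeded in all channels.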
